A study of Mus musculus with 8 samples.

Results

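Oxidative phosphorylation genes are followed here in cultured mouse brain pericytes with and without TGF-β1. The genes were taken by symbol: protein-coding genes named *Ndufa*, *Ndufb*, *Ndufc*, *Ndufs* or *Ndufv* with a number (complex I), *Sdha* to *Sdhd* (complex II), *Uqcr* genes and *Cyc1* (complex III), *Cycs* (cytochrome c), *Cox4* to *Cox8* genes (complex IV) and *Atp5* genes (complex V). Symbols with -ps and the assembly factors *Ndufaf* and *Uqcc* were dropped. This gave 87 of the 54532 gene identifiers in the count tables, with 37 in complex I, 4 in complex II, 9 in complex III, 1 for cytochrome c, 18 in complex IV and 18 in complex V. Of these, 82 had enough reads to be tested. All 87 are encoded in the nucleus.

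The series holds 8 primary cultures of brain pericytes from wild-type (WT) mice, the contractile cells that lie along capillaries. There were 4 cultures with TGF-β1, a secreted cytokine, at 5 μg/mL for 48 h, and 4 with vehicle, and all other conditions were shared. The dose comes from the methods of the study and the time from its results, since the labels do not state them. The cells were released from brain with papain, expanded first in endothelial growth medium and then in pericyte medium, and characterized after several passages, so they are passaged cells that had left their vessels. The methods describe isolates that received both agents, but vehicle cultures carry the numbers 1 to 4 and TGF-β1 cultures 5 to 8 in the labels. The groups were therefore compared without pairing, and the p-values measure only the spread between these cultures, which may in part be technical.

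Oxidative phosphorylation takes place in the inner mitochondrial membrane. Complex I (NADH dehydrogenase) and complex II (succinate dehydrogenase) pass electrons to coenzyme Q, complex III hands them to cytochrome c, and complex IV (cytochrome c oxidase) gives them to oxygen. Complexes I, III and IV pump protons, and complex V (ATP synthase) lets the protons flow back to make ATP. Complexes I, III, IV and V combine nuclear and mitochondrial gene products, whereas complex II is wholly nuclear.

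The promoters of these genes share short sequences that were not used to choose them. RefSeq promoter windows (250 bases before to 50 after the start, GRCm38.p6) were matched to 69 of the 87 genes. Genes without a window include *Ndufa4l2*, *Sdhc*, *Uqcrq*, *Cox6c*, *Ndufs1* and *Cox4i2*, so the counts below do not cover them. The consensus word of the nuclear respiratory factor NRF1, printed in capitals below with 1 free position in its middle, was present on either strand in 16 of the 69 windows (23.2%), against 4.78% of the windows of 27025 genes. CCGGAAG, the core of ETS-family sites, was in 21.7% against 9.12%, AAGATGGCG, a YY1 word, in 8.70% against 1.49%, and GGGGCGGGG, an SP1 word, in 17.4% against 11.6%. ACGTG, the core of hypoxia response elements, was in 27.5% against 19.7%. CACGTG, the E-box, which contains ACGTG, was in 8.70% against 7.24%. GTCTAGAC, a palindrome bound by SMAD proteins, was in none of the 69 and in 0.211% of all windows. The GC content had a median of 57.3% against 52.7%. The 69 windows were those nearest the annotated gene start, whereas the first listed window was taken for each of the 27025 genes. Those genes were not matched to the oxidative phosphorylation genes in type or level. A match is a description of letters and not a site. The 250 bases before the start are shown for 4 genes that differ in their number of NRF1 words and in their response below, all on the minus strand, with the NRF1 words in capitals. *Sdha* (chr13:74350241-74350490) holds 3 words and fell with TGF-β1, *Ndufs5* (chr4:123718187-123718436) holds 1 and rose, *Cox6a1* (chr5:115348959-115349208) holds 2 and was not called, and *Cycs* (chr6:50566570-50566819) holds 0 and rose. Only exact words were counted, and the *Cycs* window holds a stretch, tcgcatgcgc, that differs from the word in its first base alone.
Sdha: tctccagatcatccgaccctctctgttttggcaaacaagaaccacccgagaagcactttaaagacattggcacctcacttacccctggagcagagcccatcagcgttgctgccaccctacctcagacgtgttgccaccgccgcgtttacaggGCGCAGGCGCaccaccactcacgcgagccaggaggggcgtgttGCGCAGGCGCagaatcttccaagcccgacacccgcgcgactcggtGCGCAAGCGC
Ndufs5: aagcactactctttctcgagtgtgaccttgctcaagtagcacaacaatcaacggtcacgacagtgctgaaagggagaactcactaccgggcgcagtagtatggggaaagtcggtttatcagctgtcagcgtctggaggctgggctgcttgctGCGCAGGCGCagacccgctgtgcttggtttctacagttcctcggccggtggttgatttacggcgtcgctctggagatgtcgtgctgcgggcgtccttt
Cox6a1: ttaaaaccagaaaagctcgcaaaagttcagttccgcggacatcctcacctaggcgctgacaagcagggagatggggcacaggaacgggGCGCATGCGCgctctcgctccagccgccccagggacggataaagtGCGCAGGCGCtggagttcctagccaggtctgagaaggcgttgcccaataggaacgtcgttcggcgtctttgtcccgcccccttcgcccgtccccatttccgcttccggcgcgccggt
Cycs: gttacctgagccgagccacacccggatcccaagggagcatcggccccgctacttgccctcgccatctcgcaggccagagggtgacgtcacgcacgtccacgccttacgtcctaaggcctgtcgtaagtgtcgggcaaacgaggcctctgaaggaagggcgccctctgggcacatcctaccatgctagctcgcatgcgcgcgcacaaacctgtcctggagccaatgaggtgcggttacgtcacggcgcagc

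Among tested genes with a matched window, 2 of the 16 with an NRF1 word rose and 1 fell, and 3 of the 51 without it rose and 12 fell, where 20.9% of all 22544 genes tested rose and 20.3% fell by the same edgeR test. The median log2 fold changes were −0.02 and −0.01.

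The libraries were alike in depth, with 45255235 to 47651397 counts per culture, so that 3 counts correspond to 0.0631 to 0.0658 CPM (counts scaled to the TMM-adjusted library size). TGF-β response genes differed between the groups, with 7 of 8 listed genes higher and 1 lower, against 20.9% and 20.3% of all genes tested. The lower one was *Tgfbi* (230 to 81.2 CPM). Of 12 pericyte markers, 6 had a mean under 1 CPM, including *Kcnj8*, *Abcc9*, *Vtn*, *Higd1b* and *Des*, while *Pdgfrb* (202 and 291 CPM in vehicle and TGF-β1), *Cspg4* and *Notch3* were well detected. Of the 9 pericyte markers tested, 3 were higher and 3 lower with TGF-β1. The lower ones were *Rgs5* (8.62 to 2.13 CPM), *Anpep* (40.5 to 30.1 CPM) and *Atp13a5* (0.723 to 0.299 CPM). *Cdh5*, an endothelial cadherin, stood at 375 and 367 CPM with *Pecam1* near 1.11 CPM in both groups, and *Cldn5* was under 1 CPM. The summed CPM of 5 fibroblast markers was 3717 to 3877 in the vehicle cultures and 5327 to 5569 with TGF-β1, with *Lum* at 0.0865 CPM in vehicle. *Col1a1* and *Col1a2* made up most of that sum, while *Dcn* was lower with TGF-β1 (52.1 to 46.7 CPM) and *Pdgfra* did not pass the test (62.5 and 63.01 CPM). The sum of 7 macrophage and microglia markers was 8.31 to 9.01 and 9.66 to 11.4, with *Adgre1* at 0.0272 CPM. The summed endothelial level was 472 to 485 and 472 to 498 CPM over 10 markers. Of the 6 tested, *Flt1* was higher with TGF-β1 (81.7 to 99.2 CPM), and *Tek* (2.71 to 1.99 CPM) and *Ocln* (1.31 to 0.454 CPM) were lower. Astrocyte markers (6) summed to 240 to 253 and 217 to 229 CPM with *Gfap* at 0.879 CPM in vehicle, and smooth muscle markers (5) to 818 to 888 and 769.5 to 801 CPM with *Myh11* at 1.096. Among the astrocyte markers *Slc1a2* was lower with TGF-β1 (38.5 to 16.3 CPM) and *Slc1a3* higher (9.74 to 15.2 CPM). Among the smooth muscle markers *Smtn* was lower (125 to 61.6 CPM) and *Cnn1* higher (1.90 to 2.44 CPM), while *Acta2* did not pass the test (731 and 715 CPM). Neuron markers (5) summed to 4.34 to 5.50 and 9.08 to 11.8 CPM and oligodendrocyte markers (5) to 3.86 to 5.07 and 5.15 to 5.70 CPM, with *Rbfox3* at 0.195 and *Olig2* at 0.0109 CPM in vehicle and *Olig2* at 0 with TGF-β1. The neuron sum followed *Tubb3* (2.11 to 7.91 CPM), while *Syt1* stood at 2.43 and 2.24 CPM. The part of these differences in the results below was not tested, and in bulk RNA fewer cells of a type and less RNA per cell cannot be told apart.

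The nuclear-encoded oxidative phosphorylation genes as a whole changed little with TGF-β1. Of the 82 tested, 8 rose, 16 fell and 58 did not pass the test (edgeR quasi-likelihood test, adjusted p under 0.05 over all 22544 genes tested), so 29.3% were called. Over all genes tested 41.3% were called, 20.9% higher and 20.3% lower. DESeq2 called 7 higher and 10 lower. Removal of a trend on exonic length and GC content gave 13 higher and 11 lower. Leaving out 1 culture at a time gave 5 to 11 higher, with 5 without TGF-β1 culture 6, and 10 to 16 lower, with 10 without vehicle culture 3 or TGF-β1 culture 8. Among genes with a mean of at least 10 CPM, 60.9% were called (33.8% higher and 27.1% lower), against 28.9% of the 76 oxidative phosphorylation genes at that level (7 higher and 15 lower).

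The changes were small as well as few. The median log2 fold change (TGF-β1 over vehicle) of the 82 genes was −0.01, the same to 2 decimals as over all genes tested and 0.01 after removal of a trend on exonic length and GC content, and the median size of a change regardless of sign was 0.057, against 0.18 over all genes and 0.13 over those of at least 10 CPM. With *Ndufa4l2* aside, the log2 fold changes lay between −0.32 and 0.23. The 95% interval of the change stayed within a rise of 25% or the fall that reverses it for 75 of the 82 genes, against 37.9% of all genes tested. Among genes of at least 10 CPM this was so for 74 of 76, against 72.7%. The CPM of the groups did not overlap for 23 of the 82 genes, against 37.9% of all genes, and for 21 of the 76 at 10 CPM or more, against 56.7%.

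**Figure D1:**
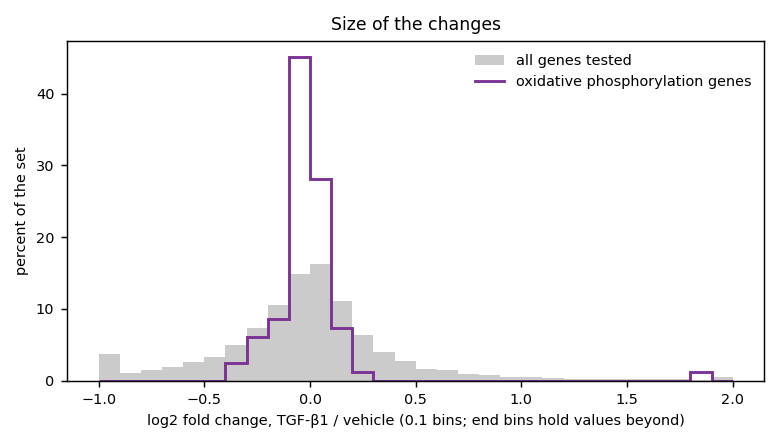
Distribution of log2 fold changes (x axis, TGF-β1 over vehicle, bins of 0.1, with values beyond the ends placed in the end bins) as percent of each set (y axis), for the 82 oxidative phosphorylation genes (purple line) and all 22544 genes tested (grey). The oxidative phosphorylation genes are concentrated around 0, with *Ndufa4l2* alone far to the right.

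**Figure D2:**
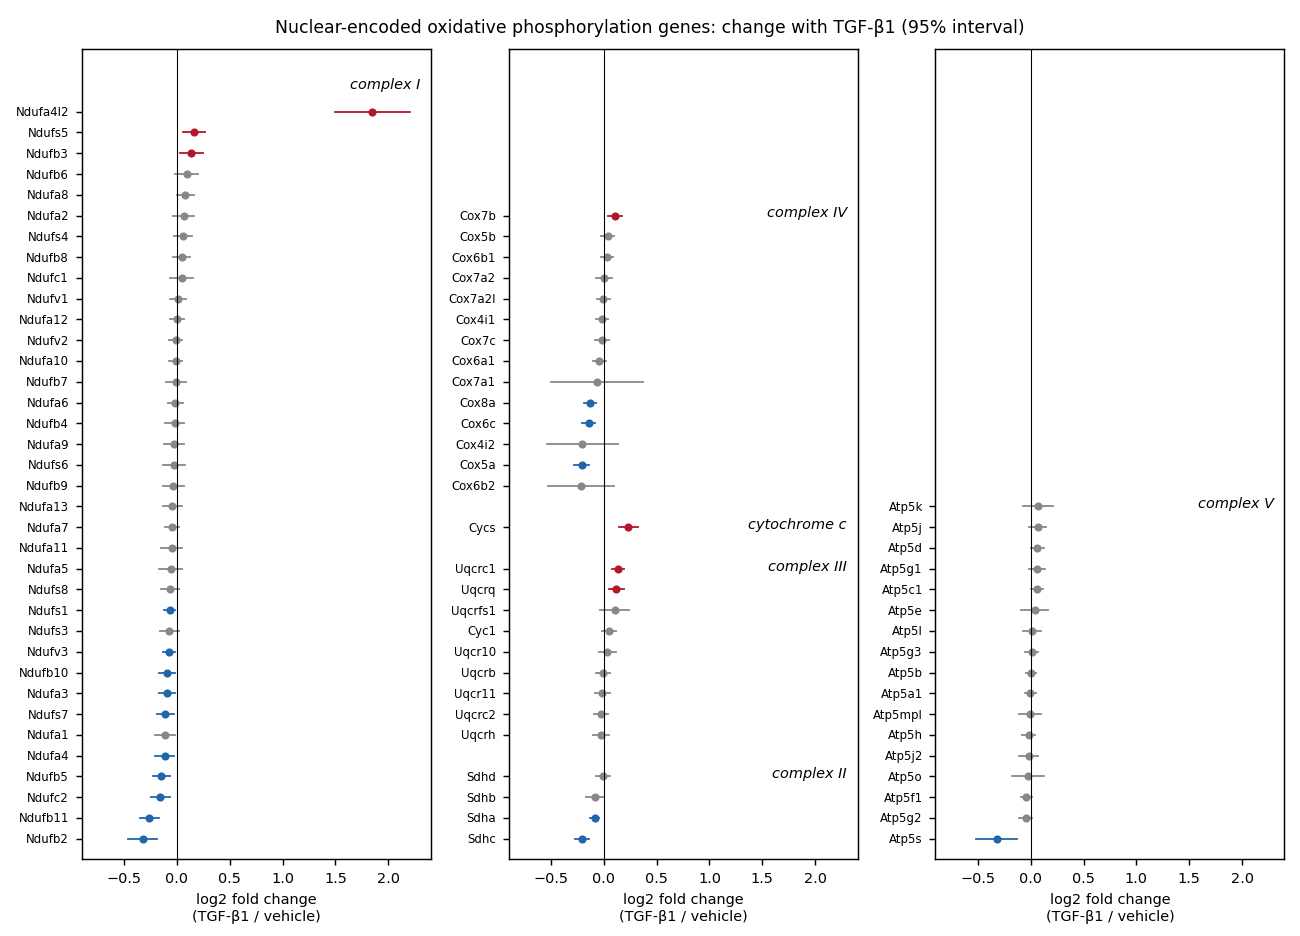
Log2 fold change (x axis, TGF-β1 over vehicle) of 81 tested genes, arranged by complex, with the 95% interval of the edgeR estimate as a bar. Genes with an adjusted p under 0.05 are red (7 higher) or blue (16 lower) and the other 58 are grey, and *Ndufa4l2* stands apart at 1.85.

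Counts of calls are given by complex, and differences between complexes, or from all genes, were not tested. In complex I 4 genes rose and 10 fell of 37, in complex II 0 and 2 of 4, in complex III 2 and 0 of 9, in complex IV 1 and 3 of 14, and in complex V 0 and 1 of 17, while *Cycs* rose. For comparison, 20.9% of all genes tested rose and 20.3% fell. Among genes with a mean of at least 10 CPM these shares were 33.8% and 27.1%. Complexes II and III hold only 4 and 9 genes, so their counts say little about a share. For complex II no gene rose by edgeR or DESeq2 or at an unadjusted p under 0.05. For complex III no gene fell by any of these counts. For complex V, DESeq2 also gave 0 higher, and 2 genes were higher at an unadjusted p under 0.05. Median log2 fold changes were −0.03, −0.08, 0.03, −0.03 and 0.00045 for complexes I to V. Without 1 culture at a time they ranged from −0.052 to −0.011 in complex I, −0.102 to −0.066 in complex II, 0.015 to 0.059 in complex III, −0.046 to −0.017 in complex IV and −0.0092 to 0.027 in complex V.

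Summed over their genes, the 82 stood at 4935 ± 113 CPM in vehicle and 4887 ± 75.1 CPM in TGF-β1 cultures (SD, n = 4 each), a difference of −0.978%. Complex II summed to 421, 430.5, 441 and 433 CPM in vehicle cultures 1 to 4 and to 403, 402, 408 and 401 CPM in TGF-β1 cultures 5 to 8, a difference of −6.44%. All TGF-β1 cultures were below all vehicle cultures for complex II. Complex I differed by −1.80%, complex III by 3.43%, complex IV by −2.49% and complex V by 0.326%, and in each of these a TGF-β1 culture lay within the range of the vehicle cultures.

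**Figure D3:**
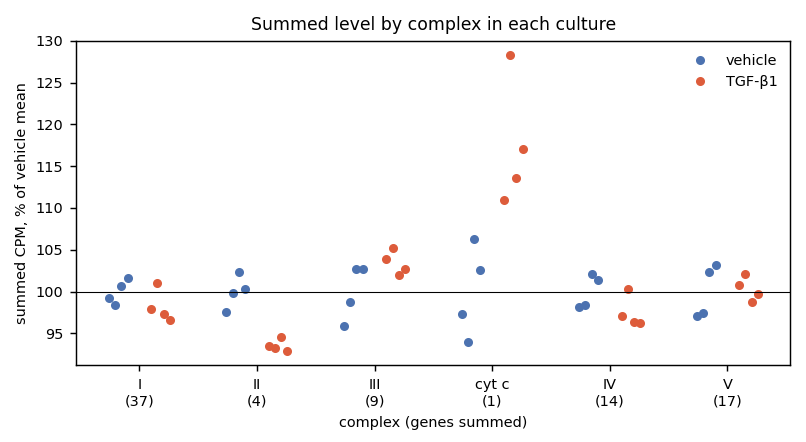
Summed CPM of each complex (x axis, with the number of genes summed) as percent of its vehicle mean (y axis) in each of 4 vehicle (blue) and 4 TGF-β1 cultures (orange). Complex II and cytochrome c are separated between the groups, in opposite directions.

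Complex I, the entry point for electrons from NADH, contained both the largest rise (*Ndufa4l2*) and the largest fall (*Ndufb2*) when genes were grouped by symbol. With *Ndufa4* and *Ndufa4l2* counted with complex IV, the highest log2 fold change in complex I was 0.165. The fall of *Ndufb2* (−0.323) was close to that of *Atp5s* in complex V (−0.320). The 10 *Ndufb* subunits, which belong to the membrane arm, gave 1 rise and 4 falls (median −0.03). DESeq2 called 3 complex I genes higher and 4 lower. With the length and GC trend removed, 7 rose and 5 fell, so the balance of rises and falls in complex I depends on that choice. The 6 not called lower by DESeq2 were *Ndufa3*, *Ndufa4*, *Ndufb10*, *Ndufs1*, *Ndufs7* and *Ndufv3*. Without 1 culture at a time edgeR called 2 to 5 higher and 4 to 10 lower, with 4 lower without vehicle culture 3 or TGF-β1 culture 8, 6 lower without vehicle culture 1 or TGF-β1 culture 7, and 2 higher without TGF-β1 culture 5, 6 or 7.

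*Ndufa4l2* had the largest change of all 82 genes. It is a paralogue of *Ndufa4* and is known as a target of the hypoxia-inducible factor HIF-1 that restrains respiration, and as a transcript enriched in mural cells of brain vessels. It lies on chr10:127514967-127517154 (plus strand, GRCm38). In vehicle cultures 1 to 4 it was at 1.11, 0.614, 0.947 and 0.867 CPM. In TGF-β1 cultures 5 to 8 it was at 4.17, 2.77, 2.71 and 3.13 CPM. All TGF-β1 cultures were above all vehicle cultures, and culture 5 was the highest. The log2 fold change was 1.85 (adjusted p = 3.96e-12 by edgeR), a rise of 3.60-fold with a 95% interval from 2.82 to 4.60.

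The last 32 bases of *Ndufa4l2* overlap *Shmt2*, the mitochondrial serine hydroxymethyltransferase, on the opposite strand. *Shmt2* also rose, from 92.1 ± 2.57 to 119.5 ± 5.52 CPM (log2 fold change 0.38). *Ndufa4l2* counts amounted to 0.961% ± 0.236 of those of *Shmt2* in vehicle and 2.69% ± 0.703 in TGF-β1 cultures (SD, n = 4 each). The exact two-sided permutation p was 0.0286, the smallest possible, unadjusted and for a pair chosen after the values were seen. In these cultures the log2 fold change of *Ndufa4l2* (1.85) was larger than that of *Shmt2*. A contribution of shared reads was not tested.

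*Ndufa4*, on chr6:11900292-11907497 (minus strand), encodes a subunit that was first counted with complex I and is now generally placed in complex IV. In vehicle cultures 1 to 4 it was at 45.6, 44.2, 49.2 and 50.7 CPM. In TGF-β1 cultures 5 to 8 it was at 43.9, 46.98, 43.5 and 40.7 CPM. The groups overlapped. The log2 fold change was −0.12 (adjusted p = 0.029 by edgeR, 0.119 by DESeq2). The coding sequences (GENCODE M21) of *Ndufa4* and *Ndufa4l2* are printed because the paralogues moved in opposite directions and are related in sequence. Capitals mark bases that differ in the alignment or have no partner.
Ndufa4: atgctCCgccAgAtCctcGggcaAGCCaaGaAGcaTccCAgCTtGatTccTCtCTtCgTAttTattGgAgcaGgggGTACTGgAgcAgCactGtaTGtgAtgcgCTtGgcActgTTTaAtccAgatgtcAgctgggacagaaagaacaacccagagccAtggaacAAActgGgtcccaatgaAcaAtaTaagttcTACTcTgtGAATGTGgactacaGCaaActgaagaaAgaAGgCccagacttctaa
Ndufa4l2: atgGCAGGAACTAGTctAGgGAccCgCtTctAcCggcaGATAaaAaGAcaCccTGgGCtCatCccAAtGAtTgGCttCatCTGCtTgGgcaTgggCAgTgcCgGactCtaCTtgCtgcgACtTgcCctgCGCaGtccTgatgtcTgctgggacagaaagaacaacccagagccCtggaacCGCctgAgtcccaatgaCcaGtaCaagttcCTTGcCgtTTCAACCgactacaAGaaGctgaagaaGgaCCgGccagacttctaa

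The 2 sequences, of 249 and 264 bases, are identical at 168 of 245 aligned bases (68.6%), and the longest shared run is 28 bases. No word of 50 bases occurs in both genes.

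**Figure D4:**
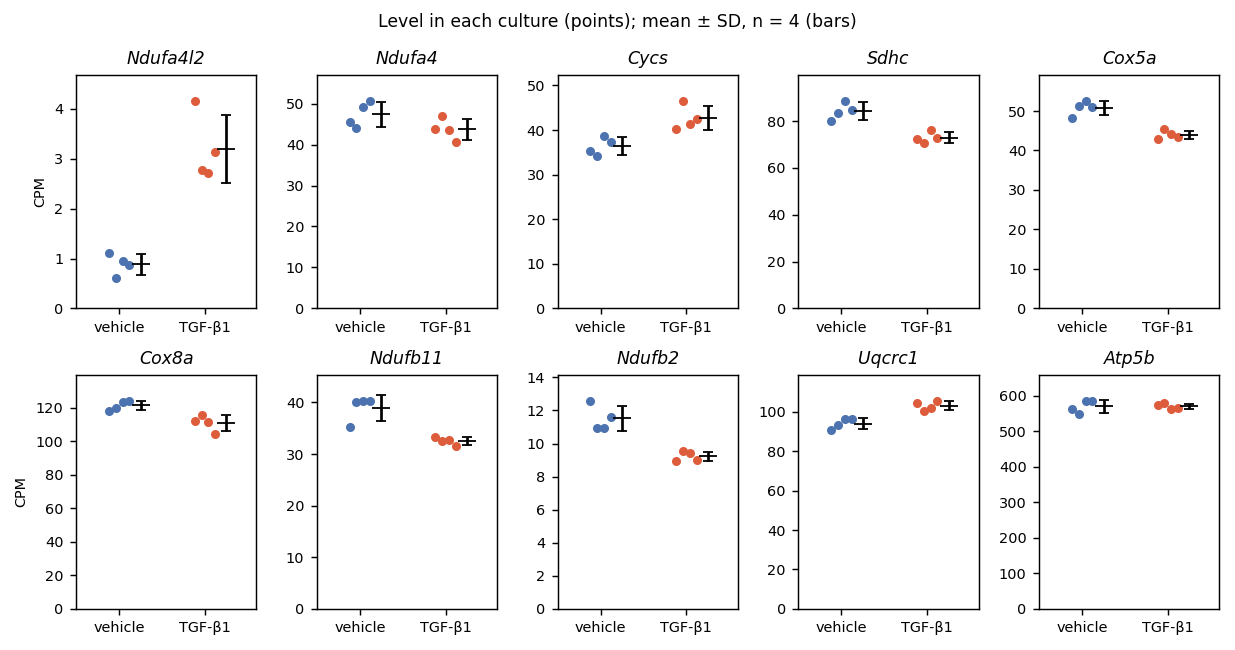
CPM (y axis, from 0) of 10 genes in each vehicle (blue) and TGF-β1 culture (orange), with the mean ± SD of 4 cultures as a bar. *Ndufa4l2*, *Cycs* and *Uqcrc1* are higher and *Sdhc*, *Cox5a*, *Cox8a*, *Ndufb11* and *Ndufb2* lower in all TGF-β1 cultures, while *Ndufa4* and *Atp5b* overlap between the groups.

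Other complex I subunits moved by small amounts. *Ndufb2*, a small accessory subunit, was at 12.6, 10.97, 10.96 and 11.6 CPM in vehicle cultures 1 to 4 and at 8.95, 9.54, 9.41 and 8.98 CPM in TGF-β1 cultures 5 to 8. This was the largest fall in the complex, log2 fold change −0.32, adjusted p = 0.000144, edgeR, and the groups did not overlap.

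*Ndufb11*, an X-linked subunit required for assembly of the membrane arm, was at 35.3, 40.1, 40.2 and 40.3 CPM in vehicle cultures 1 to 4 and at 33.4, 32.5, 32.8 and 31.6 CPM in TGF-β1 cultures 5 to 8. The groups did not overlap, and vehicle culture 1 was the lowest of its group. The log2 fold change was −0.26 (adjusted p = 1.86e-06, edgeR). Of its exonic sequence 12.9% overlaps *Rbm10* on the opposite strand and 17.5% of its 50-base words also occur in *Gm6444*.

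*Ndufc2*, a subunit of the membrane arm, fell from 30.8 ± 0.587 to 27.7 ± 1.203 CPM (mean ± SD, n = 4, as for all such values below, log2 fold change −0.16, adjusted p = 0.00307, edgeR). *Ndufb5*, another subunit of that arm, fell by 0.15 on the log2 scale. *Ndufs5*, which lies on the intermembrane side, was at 20.2, 18.9, 20.1 and 20.3 CPM in vehicle cultures 1 to 4 and at 21.2, 23.3, 21.2 and 23.5 CPM in TGF-β1 cultures 5 to 8. All TGF-β1 cultures were above all vehicle cultures. The change was 0.17 on the log2 scale (adjusted p = 0.00776, edgeR), and 21.7% of its 50-base words also occur in *BC002163*.

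*Ndufb3*, another membrane arm subunit, rose from 20.4 ± 1.68 to 22.4 ± 0.746 CPM (log2 fold change 0.14, adjusted p = 0.0381, edgeR), with groups that overlapped. *Ndufb3* was not called by DESeq2 (adjusted p = 0.0759).

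Among the core subunits, which carry the flavin and iron-sulfur clusters, *Ndufs7*, which carries the last iron-sulfur cluster before the quinone, fell from 37.4 ± 1.59 to 34.6 ± 1.29 CPM (log2 fold change −0.11, adjusted p = 0.0281, edgeR), and *Ndufs1*, the largest core subunit with several iron-sulfur clusters, fell from 94.7 ± 1.301 to 90.3 ± 0.755 CPM (log2 fold change −0.068, adjusted p = 0.0404, edgeR). *Ndufv1*, which binds NADH and the flavin, had a log2 fold change of 0.015, *Ndufv2* of −0.01, *Ndufs3* of −0.071 and *Ndufs8* of −0.063, and none of these passed the test.

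Falls were also called for *Ndufa3*, *Ndufb10* and *Ndufv3*, each lower by 0.07 to 0.09 on the log2 scale. *Ndufa3*, *Ndufb10*, *Ndufv3*, *Ndufs1*, *Ndufs7*, *Ndufb3* and *Ndufa4* lost their call under 5 to 10 of 16 alternative analyses, and *Ndufc2* under 1. The alternatives include leaving out each culture, so the calls among these small changes depend on the processing and on single cultures.

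Complex II, which links the citric acid cycle to the respiratory chain, had 2 falls among its 4 subunits. *Sdhc*, a membrane anchor that binds the quinone, was at 79.9, 83.6, 88.8 and 84.8 CPM in vehicle cultures 1 to 4 and at 72.4, 70.6, 76.2 and 72.7 CPM in TGF-β1 cultures 5 to 8. The groups did not overlap, and the log2 fold change was −0.21 (adjusted p = 5.47e-07, edgeR). *Sdha*, the flavoprotein that oxidizes succinate, was at 237, 238, 243 and 241 CPM in vehicle cultures 1 to 4 and at 225, 228, 225 and 226 CPM in TGF-β1 cultures 5 to 8. The change was smaller, at −0.087 (adjusted p = 0.00191, edgeR), but all TGF-β1 cultures were below all vehicle cultures. *Sdhb*, the iron-sulfur subunit, had a log2 fold change of −0.081 (adjusted p = 0.112, edgeR), and *Sdhd*, the other anchor, of −0.007 (adjusted p = 0.893, edgeR), and neither passed the test.

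Complex III, which passes electrons from ubiquinol to cytochrome c, had 2 rises among 9 genes. *Uqcrc1*, a large core protein on the matrix side, was at 90.7, 93.4, 96.2 and 96.2 CPM in vehicle cultures 1 to 4 and at 105, 101, 102 and 106 CPM in TGF-β1 cultures 5 to 8. The groups were separate, with a log2 fold change of 0.13 (adjusted p = 0.000132, edgeR). *Uqcrq*, a small subunit in contact with cytochrome b, rose from 42.1 ± 0.704 to 45.7 ± 1.000 CPM (log2 fold change 0.12, adjusted p = 0.00558, edgeR), also without overlap. The catalytic subunits *Cyc1* (cytochrome c1) and *Uqcrfs1* (the Rieske iron-sulfur protein) had log2 fold changes of 0.051 and 0.10 that did not pass the test (adjusted p = 0.246 and 0.219, edgeR).

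*Cycs*, the soluble electron carrier that also takes part in apoptosis when released from mitochondria, had the largest rise after *Ndufa4l2*. In vehicle cultures 1 to 4 it was at 35.4, 34.2, 38.6 and 37.3 CPM. In TGF-β1 cultures 5 to 8 it was at 40.3, 46.6, 41.3 and 42.6 CPM. The groups did not overlap, and TGF-β1 culture 6 was the highest. The log2 fold change was 0.23 (adjusted p = 2.51e-05, edgeR). Of its 50-base words 26.1% also occur in the pseudogene *Gm10053*.

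Complex IV, the oxygen-consuming end of the chain, had 3 falls and 1 rise among 14 tested genes. *Cox5a*, which joins the enzyme early in its assembly, was at 48.3, 51.3, 52.7 and 51.00 CPM in vehicle cultures 1 to 4 and at 42.9, 45.3, 44.3 and 43.3 CPM in TGF-β1 cultures 5 to 8. The groups were separate, with a log2 fold change of −0.21 (adjusted p = 4.15e-06, edgeR). Of its exonic sequence 12.8% overlaps *Gm26631* on the opposite strand.

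*Cox6c*, a small structural subunit, fell from 90.5 ± 1.91 to 82.1 ± 3.28 CPM (log2 fold change −0.14, adjusted p = 0.000141, edgeR), and *Cox8a*, the ubiquitous form of the smallest subunit, from 121 ± 2.92 to 111 ± 4.64 CPM (log2 fold change −0.13, adjusted p = 0.000215, edgeR), and the groups overlapped for neither. *Cox7b*, a small subunit, was at 63.9, 63.8, 62.9 and 65.1 CPM in vehicle cultures 1 to 4 and at 67.6, 72.1, 67.7 and 67.6 CPM in TGF-β1 cultures 5 to 8. This was the only rise in complex IV, at 0.10 (adjusted p = 0.00592, edgeR), and it was not called without TGF-β1 culture 6 (adjusted p = 0.0573). *Cox4i1*, the main regulatory subunit, was at 105 ± 1.72 CPM in vehicle and 104 ± 1.66 CPM in TGF-β1 cultures, with a log2 fold change of −0.016 and a 95% interval of −0.07 to 0.04.

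With *Ndufa4* and *Ndufa4l2* counted with complex IV, the enzyme had 2 rises and 4 falls of 16 genes, and complex I had 3 rises and 9 falls of 35.

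Complex V, the ATP synthase, was the complex with the fewest calls. Its catalytic beta subunit *Atp5b* was at 562, 549.7, 586 and 586 CPM in vehicle cultures 1 to 4 and 574, 579.8, 563 and 567 CPM in TGF-β1 cultures 5 to 8. The groups overlapped, and the log2 fold change was 0.00045, with a 95% interval of −0.05 to 0.05. *Atp5a1*, the alpha subunit, had a log2 fold change of −0.0033, likewise with an interval of −0.05 to 0.05. *Atp5s*, also called *Dmac2l*, which is not a structural subunit of the enzyme in current nomenclature, was at 6.01, 6.91, 6.29 and 5.78 CPM in vehicle cultures 1 to 4 and at 5.04, 5.38, 5.303 and 4.298 CPM in TGF-β1 cultures 5 to 8. All TGF-β1 cultures were lower, and it was the only called complex V gene, with −0.32 on the log2 scale (adjusted p = 0.00549, edgeR).

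Several subunits have tissue-specific or alternative isoforms. *Cox4i2*, an isoform of the regulatory subunit known from lung and brain pericytes, was at 2.56, 1.97, 1.92 and 1.41 CPM in vehicle cultures 1 to 4 and at 1.51, 1.57, 1.94 and 1.81 CPM in TGF-β1 cultures 5 to 8. The groups overlapped, and vehicle culture 1 was the highest. The change did not pass the test (−0.20, adjusted p = 0.361, edgeR). In length-scaled terms *Cox4i2* was at 2.49 CPM per kb of exon in vehicle, against 67.9 for *Cox4i1*, and its counts were 1.84% of those of *Cox4i1* in vehicle and 1.64% with TGF-β1.

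*Cox7a1*, an isoform known from muscle, was at 1.01 ± 0.255 CPM in vehicle and 0.969 ± 0.123 CPM in TGF-β1 cultures, and *Cox6b2*, known from testis, was at 1.96 ± 0.248 CPM in vehicle and 1.69 ± 0.128 CPM in TGF-β1 cultures. Neither passed the test. The genes left untested for low counts were *Cox6a2* and *Cox8b*, muscle-type isoforms at 0.119 and 0.163 CPM in vehicle and 0.125 and 0.152 CPM with TGF-β1, and *Cox7b2*, *Cox8c* and another identifier of *Atp5o* (ENSMUSG00000116933), which had 0 counts in every culture.

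Ratios of isoforms within a culture do not depend on library scaling. For *Ndufa4l2* over *Ndufa4* the counts stood at 1.85% in vehicle and 7.21% with TGF-β1, a difference of 1.96 in log2 ratio that separated all cultures (exact two-sided permutation p = 0.0286, adjusted p = 0.1 over 7 pairs). *Atp5g2* over *Atp5g3*, which encode the same mature c subunit, fell from 81.4% to 78.1%, a difference of −0.06 with the same exact permutation p values. With 4 against 4 cultures the smallest possible p is 0.0286, so that neither pair passed the adjustment. The others gave exact permutation p values of 0.143 (*Cox6b2*/*Cox6b1*, −0.24), 0.371 (*Atp5g1*/*Atp5g3*, 0.05), 0.514 (*Cox4i2*/*Cox4i1*, −0.16), 0.83 (*Cox7a1*/*Cox7a2*, −0.04) and 0.971 (*Cox7a2l*/*Cox7a2*, −0.0038). Without 1 culture at a time *Cox4i2*/*Cox4i1* ran from −0.31 (without vehicle culture 4) to −0.014 (without vehicle culture 1), and *Cox7a1*/*Cox7a2* from −0.14 to 0.13, positive without vehicle culture 1 or TGF-β1 culture 5. *Ndufa4l2*/*Ndufa4* ran from 1.83 to 2.10. The ranges were −0.34 to −0.17 for *Cox6b2*/*Cox6b1*, 0.023 to 0.066 for *Atp5g1*/*Atp5g3*, −0.07 to −0.053 for *Atp5g2*/*Atp5g3* and −0.022 to 0.015 for *Cox7a2l*/*Cox7a2*.

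Over the 8 cultures, the genes whose log2 CPM correlated most with that of *Cox4i2* were *Ndufv3* (Pearson's r = 0.73), *Cox7a1* (0.67), *Cox6b2* (0.63), *Ndufb2* (0.46) and *Ndufs7* (0.45). These values describe 8 points that share libraries and groups.

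Levels were compared between genes as CPM per kb of exon in the vehicle cultures, since longer genes collect more reads. *Cox8a* was highest at 196 CPM per kb, followed by *Atp5b* at 135, *Cox6b1* at 132, *Cox6a1* at 111 and *Atp5a1* at 91.0. The lowest tested genes were *Ndufa4l2* at 0.807 CPM per kb, *Cox6b2* at 1.77, *Cox7a1* at 1.89, *Ndufb2* at 2.05 and *Cox4i2* at 2.49. The exonic length counts every annotated isoform, so a gene with long, rarely used exons appears low on this scale.

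**Figure D5:**
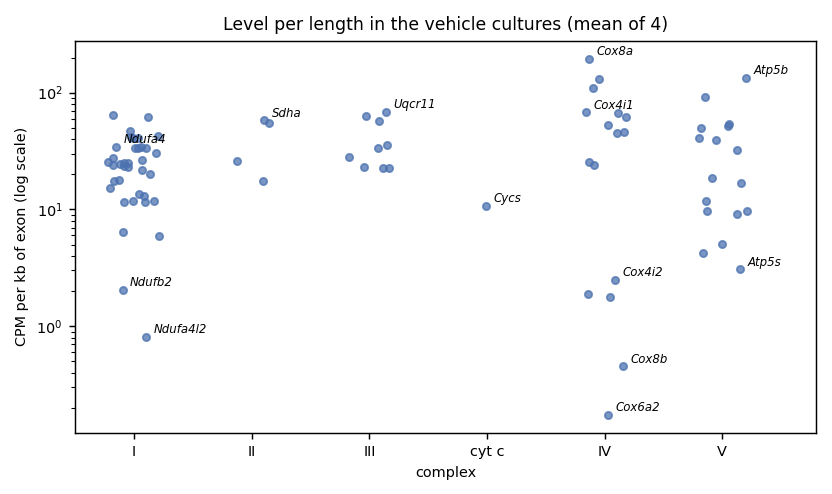
CPM per kb of exon (y axis, log scale) of each gene with any reads, as the mean of the 4 vehicle cultures, by complex (x axis, horizontal spread random). *Cox8a* and *Atp5b* are at the top and the isoforms *Cox6a2*, *Cox8b* and *Ndufa4l2* at the bottom.

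The mitochondrial genome could not be read beside the nuclear genes. Its 37 genes, of which 13 encode subunits of complexes I, III, IV and V, were listed at 0 in every culture, so no ratio of nuclear to mitochondrial transcripts was formed.

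Genes that build, supply or regulate the chain were taken as lists for context. Across 11 lists and 272 tested genes, 50 rose and 36 fell. The counts of each list stand against 20.9% higher and 20.3% lower over all genes tested. These shares were 33.8% and 27.1% among genes with a mean of at least 10 CPM. The lists were not split by level. Values in parentheses below are log2 fold changes from the same edgeR fit unless a p is named. Among complex I assembly factors 2 of 17 rose (*Ndufaf2*, 0.31 and *Tmem70*, 0.13) and 4 fell, with *Tmem126b* and *Ndufaf3* at −0.23 and −0.23. Among 32 assembly factors of complexes II to V, 3 rose and 4 fell. *Higd1a*, a hypoxia-inducible modulator of complex IV, rose from 22.3 ± 0.7002 to 31.2 ± 2.28 CPM (log2 fold change 0.49, adjusted p = 1.69e-11, edgeR), *Ttc19*, a complex III factor, rose by 0.22, and *Cox14* and *Atpaf1* fell, at −0.23 and −0.22.

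Among 22 regulators of mitochondrial biogenesis, 7 rose and 4 fell. *Hif1a*, the oxygen-sensing subunit of HIF-1, rose from 227 ± 7.76 to 359.8 ± 3.75 CPM (log2 fold change 0.67, adjusted p = 5.02e-26, edgeR), while *Epas1*, which encodes HIF-2α, fell from 65.8 ± 0.884 to 28.4 ± 2.09 CPM (log2 fold change −1.21, adjusted p = 1.53e-27, edgeR). *Myc* rose (0.61) and *Ppara* fell (−1.01). The coactivator *Ppargc1b* fell from 12.7 ± 0.8196 to 8.77 ± 0.226 CPM (log2 fold change −0.54, adjusted p = 7.92e-09, edgeR). *Ppargc1a*, a related coactivator, was at 0.999 ± 0.138 CPM in vehicle and 0.747 ± 0.124 CPM in TGF-β1 cultures (adjusted p = 0.138, edgeR). *Tfam*, *Nrf1*, *Gabpa* and *Esrra*, regulators of nuclear and mitochondrial respiratory genes, did not pass the test, with log2 fold changes of −0.041, −0.061, 0.072 and 0.0069.

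In the machinery that expresses the mitochondrial genome, 4 of 22 genes rose and 2 fell. The helicase *Twnk* (0.42) and the transcription factor *Tfb2m* (0.24) rose, and *Mterf4* (−0.85) and *Mtrf1l* (−0.17) fell. Of 77 mitochondrial ribosomal protein genes 12 rose and 5 fell, the largest changes being *Mrps12* (0.27), *Mrpl39* (0.25), *Mrps6* (−0.30) and *Mrps18a* (−0.24). Protein import had 11 rises and 1 fall of 24 genes, with *Timm8a1* (0.48) and *Timm8b* (0.24) higher and *Dnajc19* (−0.16) lower.

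Genes of fuel entry included larger single changes. Of 26 genes for pyruvate and fatty acid entry 4 rose and 8 fell. *Pdk4*, a kinase that inhibits pyruvate dehydrogenase, rose from 16.96 ± 1.098 to 41.6 ± 1.07 CPM (log2 fold change 1.29, adjusted p = 2.49e-26, edgeR), and *Pdk1* by 0.36. *Acadm*, the medium-chain acyl-CoA dehydrogenase of fatty acid oxidation, fell from 72.03 ± 1.54 to 44.98 ± 0.988 CPM (log2 fold change −0.68, adjusted p = 8.67e-22, edgeR), and *Etfb*, which passes electrons from that pathway to coenzyme Q, fell by 0.49. In the citric acid cycle 2 of 15 genes rose (*Idh3a*, 0.31, and *Mdh2*, 0.21) and 5 fell, with *Pcx*, pyruvate carboxylase, and *Idh2* at −0.46 and −0.42. Coenzyme Q synthesis had 3 rises and 1 fall of 13 genes, with *Coq10b* at 0.46, *Coq8b* at 0.27 and *Coq9* at −0.22. Among 8 carriers and uncouplers *Vdac1* rose (0.080) and *Ucp2* fell (−0.31), and of 18 cristae and dynamics genes *Phb* (0.15) and *Phb2* (0.14) rose and *Dnm1l* (−0.10) fell.

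Reads may be shared or misassigned for some of these genes. Exons of 26 of the 87 overlap a gene on the opposite strand and those of 6 a gene on the same strand, and 51 share at least 1 50-base word with another gene. The strand setting of the counting is not given in the sources used here, so reads from antisense partners cannot be told apart.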

How the data were processed

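Brain pericyte cultures (4 vehicle, 4 TGF-β1) were profiled by bulk RNA-seq of total RNA with a stranded kit. The authors deposited unnormalized read counts per Ensembl gene, 1 table per culture. According to the methods and the submitters' processing notes, reads were aligned to mm10 with STAR 2.7.5c in 2-pass mode, PCR duplicates were removed with SAMtools 1.15 and reads were counted with featureCounts 2.0.3. The annotation release, the strand setting and the treatment of multi-mapped reads are not given in the sources used here. Duplicate removal can lower the counts of highly expressed short genes, and low counts were mostly even (68.5% to 70.2% of counts from 1 to 20), so that independent fragments may be fewer than counts.

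Identifiers were matched to GENCODE M21 (54495 of 54532). The members and gene lists were chosen with earlier results of these data known. Another 4 symbols matching the rule were annotated as pseudogenes and were left out with 8 -ps symbols. The counts were analysed in R 4.3.3 with edgeR 4.0.16 (filterByExpr, TMM, robust quasi-likelihood test, Benjamini-Hochberg adjustment over 22544 genes, threshold 0.05). The 95% intervals cover the edgeR estimate. Isoform ratios used a pseudocount of 0.5 counts and were compared over all 35 splits of the cultures by exact permutation (two-sided). Correlations used log2 CPM with a prior count of 2. Intervals cover the spread between cultures only. On simulated data for 22544 genes, edgeR recovered 68 of 100 genes changed by 0.5 and 74 of 100 changed by 1 on the log2 scale, with 6.58% false calls. Only these genes, drawn over all expression levels, were changed in the simulation, whereas 41.3% of genes were called in the data. The members had a median absolute log2 fold change of 0.057, so the recovery does not say how often a change in a member would be called.

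Named were the isoform pairs, the subunits of complex II, the complex I core, *Cyc1*, *Cycs*, *Uqcrfs1*, *Atp5a1* and *Atp5b*, the 3 largest called rises and falls in complexes I, III, IV and V, the untested members, and in each companion list the 2 largest called rises and falls with *Ppargc1a*, *Ppargc1b*, *Tfam*, *Nrf1*, *Gabpa* and *Esrra*. Other named members, and *Shmt2*, were chosen after their values were seen. Alternatives were DESeq2 1.42.0 as the test, 3 other scalings within edgeR (DESeq2 size factors, library totals, upper quartiles), 2 other count filters, halved counts, removal of a trend on exonic length and GC content, and leaving out each culture. Replicate libraries of a group differed by more than sampling noise in every pair (chi-square per degree of freedom 2.25 to 3.96, and 1.14 to 2.11 on halved counts). Protein sequences were not used here. The single values of 1 tested gene, which is included in the counts and sums, are not reported here.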

Additional observations from a re-analysis of the deposited data

Results flagged for a closer look

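In 178 groups of 4 values (each tested gene and each complex sum in each condition), 9 had a culture set apart from the others by most of the group's range. Chance gives about 1 in 20, or 8.9 of 178, close to the number found, and 8 are given here. In complex I, *Ndufa6* was at 45.9 CPM in TGF-β1 culture 6 with the nearest culture at 43.9. *Ndufb11* was at 35.3 CPM in vehicle culture 1 (nearest 40.1) and *Ndufs5* at 18.9 CPM in vehicle culture 2 (nearest 20.1). *Ndufb9* was at 24.7 CPM and *Ndufs3* at 35.01 CPM in vehicle culture 4 (nearest 24.3 and 32.6). In the other complexes, *Sdhd* was at 71.8 CPM in TGF-β1 culture 7 (nearest 66.6), *Uqcrq* at 44.2 CPM in TGF-β1 culture 8 (nearest 46.1) and *Cox7b* at 72.1 CPM in TGF-β1 culture 6 (nearest 67.7).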

How the results depend on the processing

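No paired analysis was possible because the labels number the vehicle cultures 1 to 4 and the TGF-β1 cultures 5 to 8. Of the 24 called genes, 14 kept their call under all 16 alternatives and 10 lost it under at least 1, 8 of the 58 uncalled genes were called under at least 1, and no called gene changed sign. DESeq2 gave 10 lower of all members and 4 in complex I, DESeq2 size factors gave 6 lower in complex I, as did testing every gene with a count in any culture, and library totals gave 2 higher there. Removing the length and GC trend gave 13 higher of all members with a median log2 fold change of 0.014, 7 higher and 5 lower in complex I, 2 higher in complex IV, and 1 higher in complex V with a median of 0.027. Counting *Ndufa4* and *Ndufa4l2* with complex IV gave 2 higher there. Without 1 culture at a time, the ranges were 5 to 11 higher and 10 to 16 lower of all members, 2 to 5 higher and 4 to 10 lower in complex I, 0 to 1 higher in complex IV (0 without TGF-β1 culture 6), and 0 to 2 higher in complex V (2 without vehicle culture 3) with a median of −0.0092 to 0.027. The median of all members then ran from −0.030 to 0.0013. The cause of these differences was not tested. Genes near 1 CPM, such as *Cox4i2* and *Cox7a1*, have wide intervals at this depth.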
